A study of Mus musculus with 12 samples.

Results

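Genes of glycolysis and of the response to low oxygen were followed in sorted endothelium of the mouse ear skin. A list of 35 genes was matched to the gene names of the array's annotation, older symbols included, and 33 had a row naming them alone, among 30748 genes with such a row. Gpi1 and Eno1 had none, so their expression was not analysed here. The cells came from C57BL6 mice carrying a Prox1-GFP transgene, a green fluorescent reporter of lymphatic identity, in all 4 groups. Their age is adult in one label and 5 weeks in the design text. After enrichment on PECAM1 beads, lymphatic endothelial cells (LEC) were sorted by podoplanin and the reporter and divided by LYVE1: high for capillaries (cap LEC), intermediate for pre-collectors (pre-col LEC), and low or absent for collectors (col LEC). The blood endothelial sort (BEC) took PECAM1+ cells that lacked podoplanin, reporter and LYVE1. Each group had 3 arrays labelled as biological replicates, 12 in all. The labels do not say whether each came from 1 mouse or a pool, so that p-values measure the spread between these samples.

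Glycolysis splits glucose into pyruvate, which lactate dehydrogenase turns into lactate or which enters the mitochondria through pyruvate dehydrogenase. Endothelial cells are known to draw much of their energy from it, and PFKFB3, whose product activates phosphofructokinase, is a known control point during vessel sprouting. In low oxygen, the subunits HIF1A and EPAS1 (HIF-2 alpha) are no longer hydroxylated by the prolyl hydroxylases EGLN1 to EGLN3, escape degradation through VHL, pair with ARNT and activate genes that hold the core sequence ACGTG or GCGTG. Many glycolytic enzymes are among these genes, as is EGLN3 itself. Protein stability, the main point of HIF control, is not measured by an RNA array.

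The arrays separated lymphatic from blood endothelium. The mean log2 value of 6 lymphatic markers lay between 11.86 and 12.68 on the 9 LEC arrays and between 7.11 and 8.24 on the 3 BEC arrays. BEC replicate 1 was at 8.24 and the other BEC arrays at 7.11 and 7.21. The marker Mmrn1 was at 9.84 on BEC replicate 1, against 6.55 and 6.52 on the others. The mean of 7 measured blood endothelial markers lay between 8.07 and 8.84 on the LEC arrays and between 11.32 and 11.49 on the BEC arrays. Lyve1, Pdpn and Prox1 were selected by the sort and only check the labels. Array medians were 6.06 to 6.17. Over the 19680 genes tested, 2 arrays correlated at 0.971 to 0.988 if of 1 group and at 0.904 to 0.923 if one was LEC and the other BEC. Arrays of different LEC groups correlated at 0.973 to 0.989, so this measure did not set the LEC groups apart. Genes of mural cells, which wrap and contract blood vessels, were higher in BEC. The mean of 6 mural markers was 9.40 to 9.73 on the BEC arrays and 7.18 to 8.51 on the pre-col LEC arrays. It was 6.76 to 7.54 on the cap LEC and 6.85 to 7.07 on the col LEC arrays. All 6 were called lower in LEC, among them Pdgfrb (-3.37) and Myh11 (-1.53), beside 10.6% of all genes tested. Of 18 tested genes of the immediate early and dissociation list, 5 were called lower in LEC, led by Nr4a1 (-1.49), beside the same 10.6%. The part of mural RNA and of handling in the LEC to BEC differences was not tested. In bulk samples, fewer cells of a type and less RNA per cell cannot be told apart.

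All values are RMA log2 values, and a level is compared only within a gene, because rows for different genes differ in their probes. A gene was called when limma's moderated test gave an adjusted p under 0.05 over all 19680 genes. Members and lists were chosen with results of these data known. Differences marked ± carry the standard error, and levels the standard deviation over 3 arrays.

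In LEC against BEC, 15 of 33 members were called, 13 lower and 2 higher in LEC, while 22.6% of all genes tested were called, 10.6% lower and 12% higher. The median difference of the members was -0.19, beside -0.02 for all genes. Between the LEC groups no member was called, and few genes of the table were. The arrays of LEC and BEC did not overlap for 15 members, 14 lower and 1 higher, against 17.8% of all genes (9.43% lower and 8.4% higher). Called members without such separation were Pfkl, Pfkp and Aldoa, and separated members without a call were Pfkm, Gapdh and Car9. Of the 33 members, 32 were above the median of all rows on all 12 arrays. Pdk1 was above it on 4, the 3 BEC arrays and 1 LEC array, and so entered the test mainly through the group in which it was higher.

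**Figure D1:**
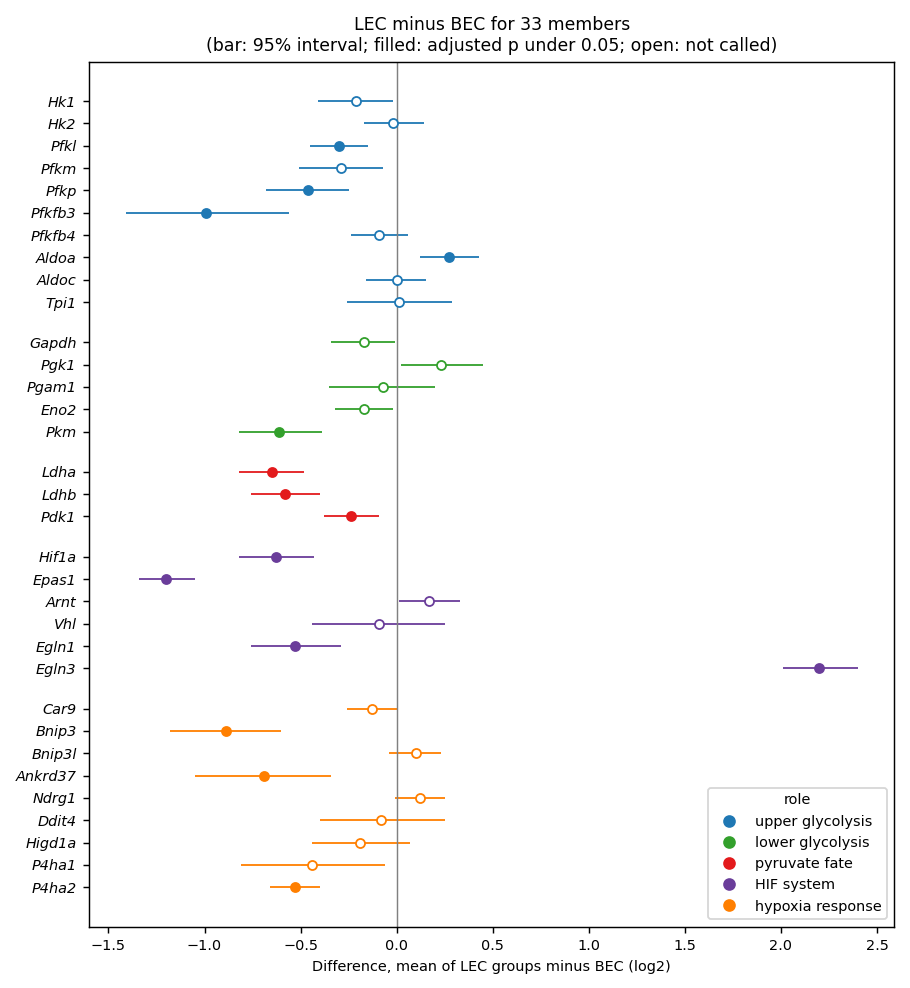
Difference between the mean of the 3 LEC groups and BEC (log2, horizontal axis) for 33 members ordered by role, with 95% intervals. Filled points are the 15 called members: Egln3 at 2.20 stands alone on the right, and Epas1 at -1.20 is the lowest.

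The oxygen sensing genes gave both ends of the range. Egln3, which encodes the prolyl hydroxylase PHD3, was at 10.66, 10.80 and 10.56 on the cap LEC arrays, 10.41, 10.45 and 10.56 on the pre-col LEC arrays, 10.58, 10.95 and 10.89 on the col LEC arrays, and 8.34, 8.48 and 8.53 on the BEC arrays. All 9 LEC arrays lay above all BEC arrays, with a gap of 1.88 between the nearest. The difference of 2.20 ± 0.09 is 4.61-fold (limma, adjusted p = 3.05e-09). Egln1, which encodes PHD2, the main oxygen sensor of the HIF pathway, had the opposite sign. It was at 8.90, 8.87 and 8.87 in cap LEC, 8.47, 8.73 and 8.50 in pre-col LEC, 8.36, 8.80 and 8.82 in col LEC and 9.04, 9.35 and 9.30 in BEC. The groups did not overlap, and the difference was -0.53 ± 0.11 (limma, adjusted p = 0.00325).

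The genes of both HIF alpha subunits were lower in LEC. Epas1, the subunit known as the more endothelial of the pair, was at 12, 11.97 and 11.94 in cap LEC, 11.82, 11.98 and 11.90 in pre-col LEC, 11.71, 11.93 and 11.93 in col LEC and 13.19, 13.06 and 13.07 in BEC. The LEC arrays lay within 0.29 of each other, and the nearest BEC array was 1.05 higher. The difference was -1.20 ± 0.07, or 2.29-fold (limma, adjusted p = 6.32e-08). Hif1a was at 8.95, 8.86 and 9.0 in cap LEC, 8.85, 8.92 and 8.91 in pre-col LEC, 9.16, 9.10 and 9.09 in col LEC and 9.85, 9.64 and 9.33 in BEC. The difference was -0.63 ± 0.09 (limma, adjusted p = 0.000276). The col LEC arrays lay above those of both other LEC groups, without a call (limma, adjusted p = 0.632 against cap LEC and 0.934 against pre-col LEC). Such upward separation held for 11.4% and 6.95% of all genes. Between LEC and BEC, a dim row that names Hif1a together with Gm15283 differed by 0.00 ± 0.10 (limma, adjusted p = 0.993). Arnt, the partner of both subunits, differed by 0.17 ± 0.07 (limma, adjusted p = 0.133), and Vhl, the ligase component that marks them for degradation, by -0.09 with a BEC range of 6.47 to 7.42.

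**Figure D2:**
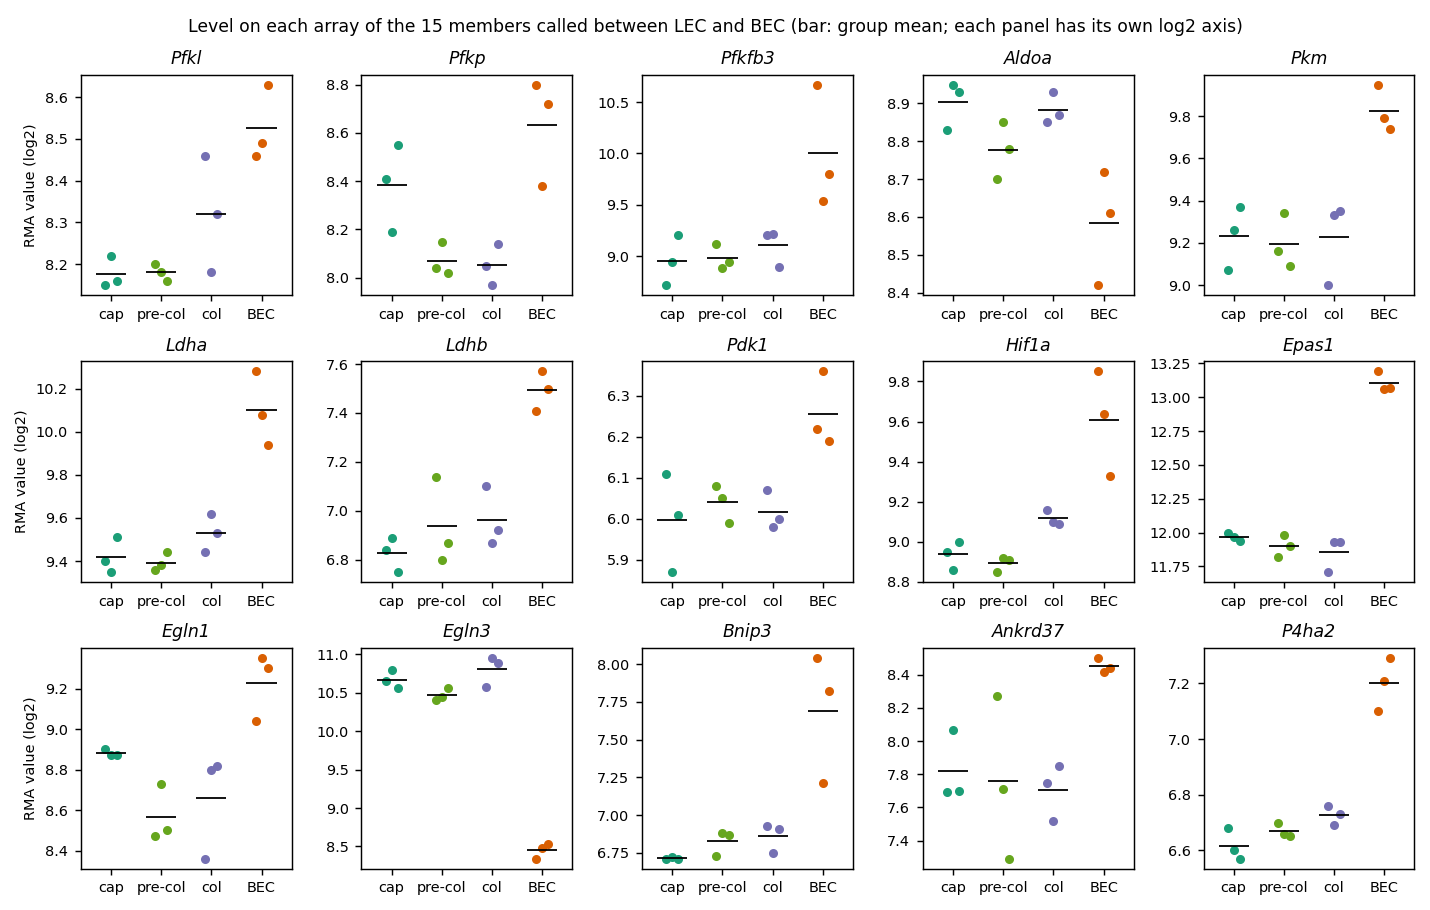
RMA value (log2, vertical axis, a separate scale in each panel) on each of the 12 arrays for the 15 members called between LEC and BEC, with points for arrays and bars for group means. The LEC groups lie together and apart from BEC in 12 panels, while Pfkl, Pfkp and Aldoa overlap with at least 1 BEC array.

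Among the hypoxia response genes, 3 of 9 were called, all lower in LEC, in a contrast that called 22.6% of all genes. Bnip3, a mitochondrial protein that directs mitochondria to degradation, was at 6.71, 6.72 and 6.71 in cap LEC, 6.73, 6.88 and 6.87 in pre-col LEC, 6.93, 6.75 and 6.91 in col LEC and 8.04, 7.21 and 7.82 in BEC. The BEC arrays were all higher and spread more widely than the LEC arrays. The difference was -0.89 ± 0.13 (limma, adjusted p = 0.000339). Its relative Bnip3l, which also serves the removal of mitochondria, differed by 0.10 with an interval of -0.04 to 0.23. P4ha2, a subunit of the prolyl hydroxylase of collagen, was at 6.68, 6.60 and 6.57 in cap LEC, 6.70, 6.66 and 6.65 in pre-col LEC, 6.76, 6.69 and 6.73 in col LEC and 7.10, 7.21 and 7.29 in BEC. All BEC arrays were above all LEC arrays. The difference was -0.53 ± 0.06 (limma, adjusted p = 2.86e-05). Its relative P4ha1 was at 8.67, 7.56 and 7.90 in BEC and 7.40 to 7.90 in LEC, overlapped and was not called at -0.44 ± 0.17 (limma, adjusted p = 0.0945). Ankrd37, an ankyrin repeat gene known as a HIF target, was at 7.69, 8.07 and 7.70 in cap LEC, 8.27, 7.71 and 7.29 in pre-col LEC, 7.75, 7.52 and 7.85 in col LEC and 8.50, 8.42 and 8.44 in BEC. Its difference was -0.69 ± 0.16 (limma, adjusted p = 0.00854), the groups did not overlap, and the widest spread was in pre-col LEC.

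The other hypoxia response members were not called. Car9, a carbonic anhydrase known for strong induction in hypoxic tumours, lay between 6.10 and 6.26 in LEC and 6.28 and 6.40 in BEC, close to the array medians, and its difference of -0.13 was not called. Ndrg1, a stress response gene, differed by 0.12 with an interval of -0.01 to 0.25. Higd1a, a mitochondrial inner membrane protein, differed by -0.19 and Ddit4, an inhibitor of mTORC1 signalling, by -0.08. Known targets of HIF on the list, with the glycolytic ones given below, differed in both directions, and more of the called ones were lower in LEC. HIF activity was not tested. Among those named here, Egln3 and Aldoa were higher, and Bnip3, Ankrd37, P4ha2, Ldha, Pfkfb3, Egln1, Pdk1 and Pkm were lower. Car9, Ndrg1, Ddit4, Higd1a, Bnip3l, P4ha1, Pgk1, Hk1 and Hk2 were not called.

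Upstream windows of these genes were read for the core sequence bound by HIF, since several of them are known as HIF targets. The RefSeq promoter table (GRCm38.p6) held 32 of the 35 members in 45 windows, without Epas1, Bnip3l and Ndrg1. The 250 bases before the annotated start are printed 5′ to 3′ for Egln3 and for 4 members lower in LEC, with capitals for ACGTG or GCGTG on either strand (CACGT and CACGC on the opposite one).
Egln3, chr12:54203875-54204124, minus strand: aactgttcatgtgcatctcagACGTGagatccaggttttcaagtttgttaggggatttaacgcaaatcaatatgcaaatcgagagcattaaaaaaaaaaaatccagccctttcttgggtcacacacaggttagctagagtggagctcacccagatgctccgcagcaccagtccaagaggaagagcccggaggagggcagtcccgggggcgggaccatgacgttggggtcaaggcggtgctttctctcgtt
Egln1, chr8:124949255-124949504, minus strand: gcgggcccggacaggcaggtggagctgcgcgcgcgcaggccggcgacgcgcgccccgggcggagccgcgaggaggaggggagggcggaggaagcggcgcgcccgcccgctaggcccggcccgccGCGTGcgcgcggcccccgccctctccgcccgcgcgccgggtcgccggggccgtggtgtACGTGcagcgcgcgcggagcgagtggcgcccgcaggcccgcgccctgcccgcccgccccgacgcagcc
Ldha, chr7:46845554-46845803, plus strand: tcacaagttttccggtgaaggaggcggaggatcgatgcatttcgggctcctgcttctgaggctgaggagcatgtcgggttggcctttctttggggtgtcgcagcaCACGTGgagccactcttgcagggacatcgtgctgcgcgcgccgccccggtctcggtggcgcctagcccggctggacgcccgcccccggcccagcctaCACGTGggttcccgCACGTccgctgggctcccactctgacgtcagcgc
Bnip3, chr7:138909507-138909756, minus strand: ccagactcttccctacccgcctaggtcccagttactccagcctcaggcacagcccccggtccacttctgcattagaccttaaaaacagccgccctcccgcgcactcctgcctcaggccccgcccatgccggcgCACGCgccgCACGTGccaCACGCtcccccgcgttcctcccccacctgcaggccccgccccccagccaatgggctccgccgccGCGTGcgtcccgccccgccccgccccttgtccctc
Ankrd37, chr8:45999851-46000100, minus strand: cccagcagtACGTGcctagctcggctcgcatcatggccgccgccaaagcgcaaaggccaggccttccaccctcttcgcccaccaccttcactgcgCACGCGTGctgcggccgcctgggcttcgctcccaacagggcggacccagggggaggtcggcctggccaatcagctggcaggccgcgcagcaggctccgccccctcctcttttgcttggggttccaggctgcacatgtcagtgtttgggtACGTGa
Egln3 held 1 match, at position -229 from the start. Ldha held ACGTG at 5 positions, of which 4 come from 2 copies of the palindrome CACGTG that reads as a match on both strands. A later Ldha start, with a window at chr7:46846832-46847081, held 0 matches to ACGTG and 1 to GCGTG. Bnip3 had 2 matches to ACGTG, both from 1 such palindrome, and 3 to GCGTG, Ankrd37 had 2 of each, in which a CACGC and a GCGTG overlap, and Egln1 had 1 of each. Either sequence was present in 36 of 45 member windows (80.0%), in 38.6% of all 32851 windows of that length and in 64.2% of those with at least 10 CpG dinucleotides. By gene, the 12 called lower with a window all had a match, as did both called higher and 13 of 16 tested and not called. Over all genes a match was present for 11226 of 27025, and for 7189 of 10871 counting only windows with at least 10 CpG dinucleotides. The count of windows includes 4 of Gpi1 and Eno1, which had no array row. A match describes the letters only and is no measure of binding.

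Of 18 glycolysis and pyruvate members measured, 7 were called lower and 1 higher in LEC, beside 10.6% and 12% of all genes. Pfkfb3, the activator of phosphofructokinase, was at 8.72, 8.94 and 9.21 in cap LEC, 9.12, 8.89 and 8.94 in pre-col LEC, 9.21, 9.22 and 8.90 in col LEC and 10.67, 9.54 and 9.80 in BEC. All BEC arrays were higher, replicate 1 by the most. The difference was -0.99 ± 0.19 (limma, adjusted p = 0.00271), and -0.65 without BEC replicate 1 (limma, adjusted p = 0.00492). Its relative Pfkfb4 differed by -0.09 with an interval of -0.24 to 0.06. Of the 3 phosphofructokinase subunit genes, Pfkp differed by -0.46 ± 0.10 (limma, adjusted p = 0.00425) and Pfkl by -0.30 ± 0.07 (limma, adjusted p = 0.00706). Pfkm, the muscle type subunit, was at -0.29 ± 0.10 and was not called (limma, adjusted p = 0.0551). Pfkp was at 8.80, 8.38 and 8.72 in BEC, where 1 array lay within the LEC range of 7.97 to 8.55, and its LEC arrays are given with the LEC comparisons. Pfkl was at 8.15, 8.22 and 8.16 in cap LEC, 8.20, 8.18 and 8.16 in pre-col LEC, 8.46, 8.18 and 8.32 in col LEC and 8.46, 8.49 and 8.63 in BEC.

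The hexokinases, which trap glucose in the cell, were not called, with differences of -0.21 for Hk1 and -0.02 for Hk2. Aldoa, the main aldolase, was the only glycolytic member called higher in LEC. It was at 8.83, 8.95 and 8.93 in cap LEC, 8.70, 8.85 and 8.78 in pre-col LEC, 8.85, 8.93 and 8.87 in col LEC and 8.42, 8.72 and 8.61 in BEC. One pre-col LEC array lay below the highest BEC array. The difference was 0.27 ± 0.07 (limma, adjusted p = 0.0151), and the call ended without BEC replicate 1 (0.19, adjusted p = 0.0764). Aldoc differed by 0.00 and Tpi1, which interconverts the triose phosphates, by 0.01, with intervals of -0.16 to 0.15 and -0.26 to 0.29.

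Of the later enzymes of glycolysis, Pkm, pyruvate kinase, was the one called. It was at 9.07, 9.26 and 9.37 in cap LEC, 9.16, 9.34 and 9.09 in pre-col LEC, 9.0, 9.33 and 9.35 in col LEC and 9.95, 9.79 and 9.74 in BEC. The nearest LEC and BEC arrays were 0.36 apart, and the difference was -0.61 ± 0.10 (limma, adjusted p = 0.000592). The row gives no separate value for the Pkm splice forms. Gapdh differed by -0.17, Eno2 by -0.17, Pgam1 by -0.07 and Pgk1 by 0.23, with none called. Gapdh, Pgam1 and Pgk1 are abundant enzymes with many processed copies in the mouse genome, so their rows are uncertain as single genes. For Pgk1 the brighter of 2 rows carries a chromosome 12 identifier, while the gene lies on chromosome X, and the X row gave 0.26 ± 0.11 (limma, adjusted p = 0.106). A row naming Gapdh and Gm7336 gave -0.21 ± 0.09, and rows naming Pgam1 with a copy gave -0.05 and -0.04.

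At the pyruvate branch all 3 members were lower in LEC, but Pdk1 passed the brightness filter mainly through the BEC arrays. Ldha, the lactate dehydrogenase subunit that favours lactate formation, was at 9.40, 9.35 and 9.51 in cap LEC, 9.36, 9.38 and 9.44 in pre-col LEC, 9.44, 9.62 and 9.53 in col LEC and 10.28, 10.08 and 9.94 in BEC. Ldhb, the subunit with the opposite preference, was at 6.84, 6.89 and 6.75 in cap LEC, 7.14, 6.80 and 6.87 in pre-col LEC, 7.10, 6.87 and 6.92 in col LEC and 7.41, 7.57 and 7.50 in BEC. Neither overlapped, and the differences were -0.65 ± 0.08 for Ldha (limma, adjusted p = 4.63e-05) and -0.58 ± 0.08 for Ldhb (limma, adjusted p = 0.000221). Both subunit genes thus differed in the same direction by similar amounts. Pdk1, a kinase that shuts off pyruvate dehydrogenase, was at 6.11, 5.87 and 6.01 in cap LEC, 6.08, 6.05 and 5.99 in pre-col LEC, 6.07, 5.98 and 6.0 in col LEC and 6.22, 6.36 and 6.19 in BEC. It was called at -0.24 ± 0.07 (limma, adjusted p = 0.0220), but not after cyclic loess (-0.18, adjusted p = 0.0809), quantile normalization (-0.20, adjusted p = 0.0563) or without BEC replicate 2 (-0.19, adjusted p = 0.106).

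Each LEC group was also set against BEC on its own, contrasts that share the BEC arrays and were added after the data were seen. Of 33 members, 13 were called in cap LEC minus BEC (2 higher and 11 lower), against 20.7% of all genes (11.1% and 9.55%). The counts were 13 in pre-col LEC minus BEC (1 higher and 12 lower), against 15.5% (7.37% and 8.15%), and 13 in col LEC minus BEC (2 higher and 11 lower), against 16.2% (8.3% and 7.94%). In the order cap, pre-col, col, Egln3 differed from BEC by 2.23, 2.03 and 2.36, and Epas1 by -1.14, -1.21 and -1.25. Ldha differed by -0.68, -0.71 and -0.57. For Egln1 the differences were -0.35, -0.66 and -0.57, the first not called (limma, adjusted p = 0.0801), and for Pfkp -0.25, -0.56 and -0.58, the first again not called (limma, adjusted p = 0.162).

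The LEC groups were then compared with each other. Differences of col LEC from cap LEC ran from -0.54 to 0.18, of pre-col LEC from cap LEC from -0.31 to 0.12, and of col LEC from pre-col LEC from -0.28 to 0.33. In limma's fit 0 of 33 were called in each, against 1.64% (0.65% higher and 0.986% lower), 0% and 0.3% of all genes. At an unadjusted p under 0.05 there were 2, 2 and 1 (6.06%, 6.06% and 3.03%), against 10.5%, 6.39% and 5.84% of all genes. The member medians were 0.02, -0.04 and 0.03, and those of all genes 0.03, 0.00 and 0.02. All 33 intervals (95%, not adjusted for their number) lay inside a 2-fold change in each of these comparisons, and 25, 26 and 28 of them lay within 0.5 on the log2 scale.

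**Figure D3:**
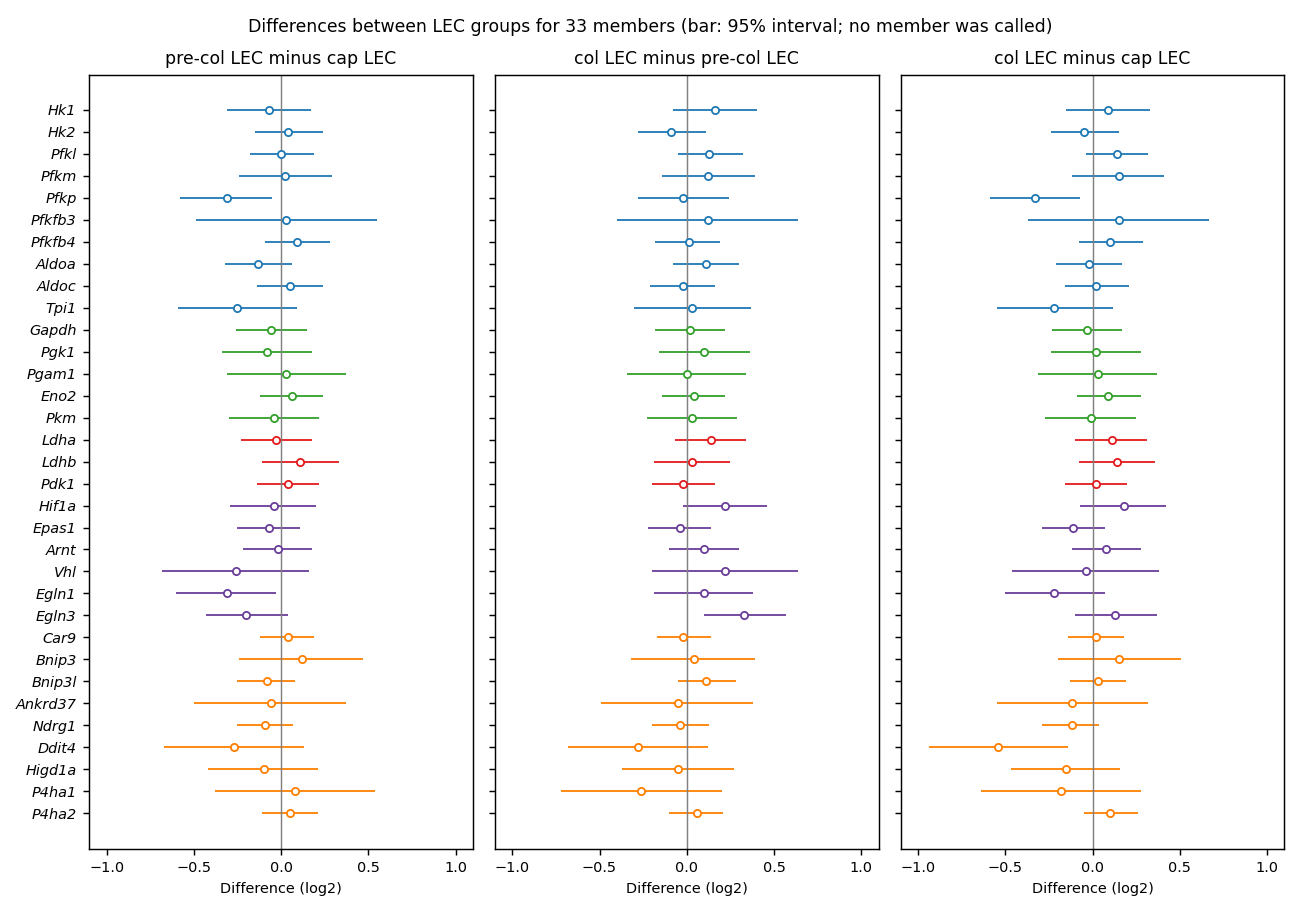
Differences between LEC groups (log2, horizontal axes) for 33 members, with 95% intervals, with 1 panel for each pair of groups. Points are open because none was called; the widest departure is Ddit4 at -0.54 in col LEC minus cap LEC.

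The members at the ends of these ranges are given array by array. Ddit4 was at 9.07, 9.16 and 8.67 in cap LEC, 8.87, 8.77 and 8.47 in pre-col LEC and 8.59, 8.43 and 8.25 in col LEC. Col LEC did not overlap with cap LEC, pre-col LEC overlapped with both, and the difference of -0.54 ± 0.18 was not called (limma, adjusted p = 0.246). With array weights it was -0.68 ± 0.14 and called (limma, adjusted p = 0.0197), and its adjusted p was 0.15 to 0.563 under the other alternatives run. In BEC, Ddit4 ranged from 8.43 to 9.13. Pfkp was at 8.41, 8.19 and 8.55 in cap LEC against 8.04, 8.15 and 8.02 in pre-col LEC and 8.05, 7.97 and 8.14 in col LEC, with the cap LEC arrays above all other LEC arrays. The differences from cap LEC were -0.31 ± 0.12 in pre-col LEC and -0.33 ± 0.12 in col LEC (limma, adjusted p = 0.772 and 0.295). Egln3 was higher in col LEC than in pre-col LEC by 0.33 ± 0.11 without a call (limma, adjusted p = 0.478), and Egln1 in pre-col LEC differed from cap LEC by -0.31 ± 0.13 (limma, adjusted p = 0.775). The arrays of col and cap LEC did not overlap for 11 of 33 members, 4 higher and 7 lower in col LEC, against 20.8% of all genes (11.4% and 9.32%). For pre-col against cap LEC these were 7 members, 2 higher and 5 lower, against 14.2% (6.24% and 7.96%), and for col against pre-col LEC 6 members, 5 higher and 1 lower, against 11.3% (6.95% and 4.39%).

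Other genes of the same pathways were read from lists, whose counts are small and stand beside 12% of all genes called higher and 10.6% called lower in LEC. Of 9 tested glucose and lactate transport genes, 3 were lower in LEC than in BEC: Slc2a4, the insulin-regulated glucose carrier (-0.33), Slc16a1, a lactate and pyruvate carrier (-0.35), and its chaperone Bsg (-0.22). Slc2a1, the main endothelial glucose carrier, was not called against BEC for the mean of the LEC groups (-0.20). Its level was 9.90 ± 0.19 in BEC, 9.52 ± 0.06 in cap LEC, 9.46 ± 0.03 in pre-col LEC and 10.10 ± 0.20 in col LEC. The LEC mean thus joins groups below and above the BEC mean. Slc2a1 was the 1 gene of this list called between LEC groups (limma, adjusted p = 0.0233 for col LEC minus cap LEC). Of 9 other glycolytic isoenzymes and regulators, Tigar, a phosphatase that slows glycolysis, was higher in LEC (0.38, adjusted p = 0.0425). Of 23 pyruvate dehydrogenase and TCA cycle genes, 5 were higher and 2 lower in LEC, with a list median of 0.13 beside -0.02 for all genes. Pdhb (0.50 ± 0.10) and Pdha1 (0.34 ± 0.09), both of pyruvate dehydrogenase, and Idh3a (0.64 ± 0.19), of the TCA cycle, were higher (limma, adjusted p = 0.00352, 0.0194 and 0.0311). Pdk4, a kinase that shuts off pyruvate dehydrogenase, was lower at -1.30 ± 0.20 (limma, adjusted p = 0.0004), like Pdk1. It ranged from 5.86 to 6.90 in LEC and from 7.15 to 7.86 in BEC.

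The HIF regulator list had 3 higher and 2 lower among 13. Cited2, which competes with HIF for its coactivators, was lower in LEC at -1.19 ± 0.09 (limma, adjusted p = 6.62e-07), with 9.25 to 9.80 in LEC and 10.49 to 10.87 in BEC. The coactivator Ep300 (-0.28) was lower, and Cops5 (0.65) and Elob (0.27), the latter part of the VHL ligase, were higher. Of 26 other genes known to rise in low oxygen, 3 were higher and 5 lower in LEC, with a median of 0.03, and the share called higher was close to the 12% of all genes. Ak4, a mitochondrial adenylate kinase, was higher at 2.23 ± 0.11 (limma, adjusted p = 2.65e-08), with 8.53 to 9.27 in LEC and 6.53 to 6.92 in BEC, a difference of the same size as that of Egln3. Rora (-0.96), Lox, which crosslinks collagen (-0.72), and Stc1, a secreted glycoprotein (-0.85), were lower. Lox was above the array median on the 3 BEC arrays and on 0 LEC arrays, and so entered the test through the group in which it was higher. Between LEC groups, 3 of these 26 were called higher in col LEC than in cap LEC: Adm (1.79), Rora (0.59) and Slc2a1 (0.58), against 0.65% of all genes. In the pentose phosphate and hexosamine list, 1 of 9 was lower in LEC, Uap1 of the hexosamine pathway (-0.99).

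**Figure D4:**
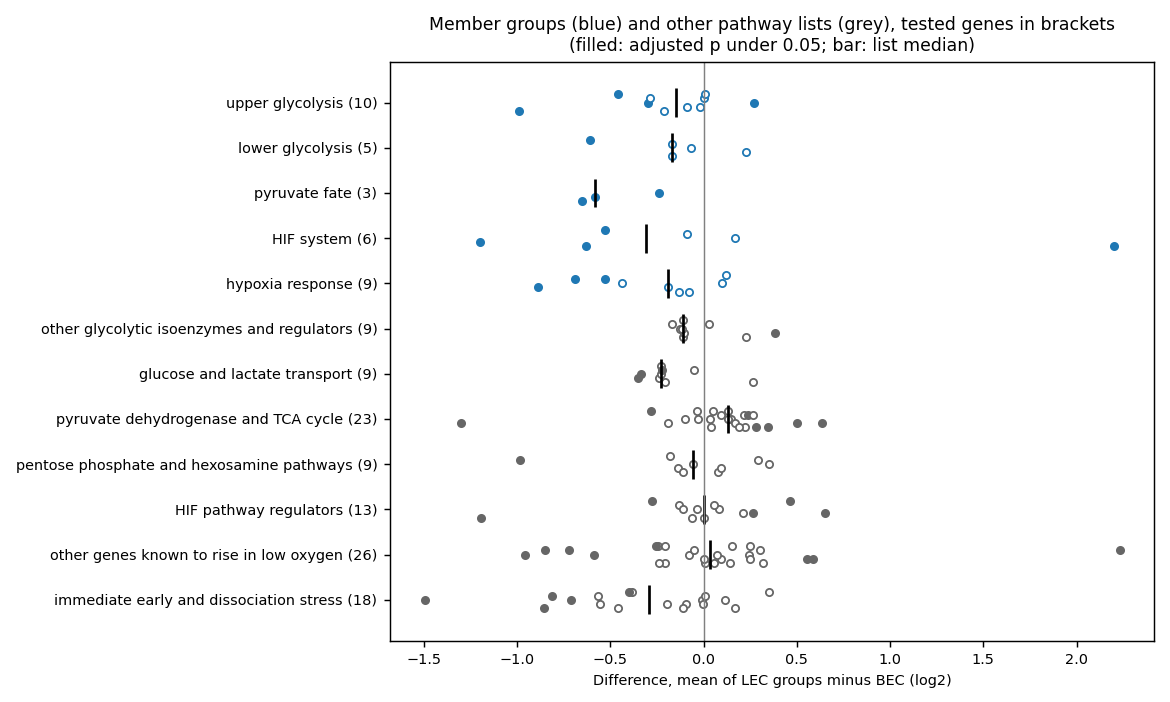
Difference between the mean of the LEC groups and BEC (log2, horizontal axis) for each tested gene of the 5 member roles (blue) and of 7 other lists (grey), with filled points for called genes and a bar at the median. The pyruvate fate members have the lowest median (-0.58), the pyruvate dehydrogenase and TCA cycle list has the highest (0.13), and Egln3 and Ak4 lie far to the right of their lists.

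The LEC arrays differed in their markers of other cell types, with pre-col LEC replicate 1 highest for mural cells and fibroblasts. Col LEC replicate 1 had a fibroblast marker mean of 7.93, against 6.65 and 6.75 on the other col LEC arrays. Without pre-col LEC replicate 1, at 8.51 for the mural marker mean and 8.69 for 5 measured fibroblast markers, 16 members were called, the 15 above and Pfkm. Pfkm was also gained without col LEC replicate 2 or cap LEC replicate 2 (limma, adjusted p = 0.0493 and 0.034). Leaving out any array but pre-col LEC replicate 1 gave 15 to 17. Each of these counts still sets LEC against BEC arrays, which had the most mural signal. The mean of keratinocyte markers was 6.29 to 6.63 in LEC and 6.69 to 6.97 in BEC. Of these, 3 of 4 tested were called lower in LEC, beside 10.6% of all genes. Of 6 skeletal muscle genes tested 0 were called, beside 22.6% of all genes in either direction.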

How the data were processed

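Gene expression was measured on Affymetrix whole-transcript arrays from 500 pg of total RNA per sample, amplified as sense-strand cDNA, per the labels' protocols. The log2 values were deposited as RMA output, which the submitters' processing notes name. This summary compresses differences of weak signals and hides changes in total RNA per cell. No software version is given in the sources used here. Rows naming 1 gene were kept, with symbols updated by Entrez ID (RefSeq, GRCm38.p6), and the brightest row stood for each gene. Genes brighter than the median row of an array on 3 or more arrays were tested with limma 3.58.1 in R 4.3.3, on all 12 arrays and 4 group means, with Benjamini-Hochberg adjustment, two-sided. Arrays have no depth: their number limits precision (median SD within groups 0.141, prior and residual degrees of freedom 3.63 and 8). Intervals are 95%. The fit was run on simulated independent values with shifts between LEC and BEC only, larger than those of most called members. That run did not cover smaller shifts, correlated replicates or comparisons between LEC groups. Members and lists were chosen with earlier results of these data known. Every member with a row was described, called members array by array, and up to 4 called genes per list by smallest adjusted p. Contrasts of single LEC groups with BEC and the fits on other rows were added after seeing the data. Plots used matplotlib 3.10.9.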

Additional observations from a re-analysis of the deposited data

How the results depend on the processing

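The alternatives were array weights, cyclic loess, quantile normalization, no filter or a stricter filter on dim genes, the mean of a gene's rows, a trended robust variance prior, the groups compared alone, the replicate number as a block, leaving out each array, and other rows for Pgk1, Gapdh, Pgam1 and Hif1a. Between LEC and BEC the count of called members was 14 to 17 in all of them, 15 to 17 when an array was left out, and no called member's own row changed sign. Lost calls were those of Pdk1 and Aldoa given above, Pdk1 also being left out by the stricter filter, and that of Hif1a when its dim row was used. Gapdh was gained by cyclic loess (-0.29, adjusted p = 0.0115) and quantile normalization (-0.26, adjusted p = 0.022), and without single BEC arrays Hk1, Eno2, Higd1a, P4ha1 and Pgk1. Pfkm was gained without single LEC arrays, as given above. Between LEC groups the count was 0 under every alternative, except 1 in col LEC minus cap LEC with array weights, which also raised the calls among all genes from 322 to 792; the cause was not tested. With the replicate block the count in LEC minus BEC was 15 and between LEC groups 0. Deviations of arrays with the same number correlated at -0.094 to 0.209 (median 0.0915) and those with different numbers at -0.143 to 0.177 (median -0.035). Among LEC groups alone, same-numbered arrays correlated at 0.046 to 0.209 and those with different numbers at -0.142 to 0.024. Every same-numbered pair of LEC groups was thus more alike than any pair with different numbers. The negative values for equal numbers came from pairs with BEC. The main fit did not treat the samples as paired. With the block, calls among all genes in col LEC minus cap LEC rose from 322 to 374. The number of arrays and weak signal of Car9 and Pdk1 limit what can be detected.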
